A study of Mus musculus with 20 samples.

Results

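Egr1, Egr2, Egr3, Dusp2, Dusp4, Dusp5, Dusp6, Dusp10, Spry1 and Spry2 are early response genes of antigen receptor signalling and inhibitors of the kinase cascades that it starts. These 10 genes were taken by symbol from the 49671 genes of the count table, and they were followed through 20 libraries of cultured mouse T cells. The CD8 week 4 group held CD8 T cells after 25 days of expansion and the CD8 week 1 group after 4 days. The CD4 week 3 group held CD4 T cells after 18 days of expansion and the CD4 week 1 group after 4 days. Each group had 5 libraries. All cells came from spleen and inguinal lymph nodes, were activated on plates coated with antibodies to CD3 and CD28 in 1 ng/mL IL-2, and then grew in medium with 50 ng/mL IL-15 and 10 ng/mL IL-7. They were sorted for CD44 and CD62L, the surface phenotype of central memory T cells. The protocol names polyclonal cells from albino B6 mice, activated for 72 h, and receptor transgenic cells from Marilyn-BLITC and MataHari-BLITC mice, activated for 24 h. Which library came from which is not given in the sources used here. Each library thus comes from cells that had left the activating antibodies days or weeks before, and the CD4 and CD8 long-term groups differ in culture time as well as in cell type.

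When a T cell receptor is engaged, RAS activates the kinases RAF, MEK and ERK in turn, and parallel branches activate JNK and p38. ERK phosphorylates ternary complex factors that sit with SRF on CArG boxes, and the EGR genes, which encode zinc finger transcription factors, are switched on within minutes. The same signal induces its own inhibitors. Dual-specificity phosphatases (DUSPs) remove phosphate from ERK, JNK and p38, and Sprouty proteins act upstream, on the steps that lead from receptors to RAS and RAF. In T cells EGR2 and EGR3 are known for their part in anergy and in restraining activation.

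The libraries held 13.3 to 28.3 M counted reads. Levels are given as CPM, the read count scaled to a common library size after TMM normalization, and levels of different genes are compared only as TPM, which also allows for exon length. Differences are log2 fold changes from edgeR's quasi-likelihood test, with p-values adjusted by the Benjamini-Hochberg method over 13290 tested genes, and a gene was called at an adjusted p under 0.05. All 10 genes passed the filter on low counts. The labels tie no library to an animal or a culture, so the spread that the p-values rest on is that among these samples and could be technical. Cd8a and Cd8b1 together had 988 to 2677 CPM in CD8 week 4 and 1236 to 2096 CPM in CD8 week 1 libraries, against 1.6 to 30.7 CPM in CD4 week 3 and 4.12 to 10.1 CPM in CD4 week 1 libraries. Cd4 and Zbtb7b together had 4.73 to 55.5 and 16.6 to 55.7 CPM in CD8 week 4 and CD8 week 1, against 638 to 1022 and 754 to 1079 CPM in CD4 week 3 and CD4 week 1. The 5 B cell markers summed to 1.04 to 8.79 CPM in CD8 week 4, with Ms4a1 and Pax5 at 0 in every library, and to 9.46 to 13.1 CPM in CD8 week 1, where Cd79b made up most of it. NK cell markers, led by Eomes, which CD8 memory cells also express, summed to 285 to 432 CPM in CD8 week 4 and 317 to 491 CPM in CD8 week 1, against 2.21 to 13 CPM in CD4 week 3 and 0.77 to 23.8 CPM in CD4 week 1. Regulatory T cell markers, led by Il2ra, which activated T cells also express, summed to 152 to 314 CPM in CD8 week 4 against 372 to 787 CPM in CD8 week 1, and to 370 to 714 CPM in CD4 week 3 against 478 to 1026 CPM in CD4 week 1. The part of these markers in the differences below was not tested. On the first principal component of the 1000 most variable genes (63.8% of the variance), CD8 week 4 replicates 1 and 2 lay at 59.9 and 64.6, apart from the other CD8 week 4 libraries at 23.9 to 29.0. CD8 week 1 replicate 3 lay at 33.7 (the others at 52.9 to 62.4), CD4 week 3 replicate 2 at -24.5 (the others at -69.3 to -53.7) and CD4 week 1 replicate 2 at -18.7 (the others at -50.6 to -42.4). The numbers in the sample titles put CD8 replicates 1 to 3 in one range (A) and replicates 4 and 5 in another (B), and the CD4 libraries in a further range, so cell type and title range cannot be told apart.

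Over the culture of CD8 cells, 2 of the 10 genes fell and none rose: Spry1 by a log2 fold change of -3.62 and Dusp4 by -2.92. Of all tested genes, 33.5% were called in that comparison, 17.1% as higher and 16.4% as lower. Over the culture of CD4 cells, Dusp4 fell by a log2 fold change of -3.17, Egr3 by -2.54 and Spry1 by -1.09, and none of the 10 rose. These 3 genes stand beside 16.5% of all tested genes that were called there, 7.67% as higher and 8.80% as lower. The median log2 fold change of the 10 genes was -0.61 in CD8 cells and -0.45 in CD4 cells, against 0.03 and 0.01 over all tested genes. The libraries of the 2 stages overlapped for every gene except Dusp4 in both cell types and Spry1 in CD8 cells. Of all tested genes, 9.78% in CD8 cells and 3.88% in CD4 cells were lower without overlap.

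**Figure D1:**
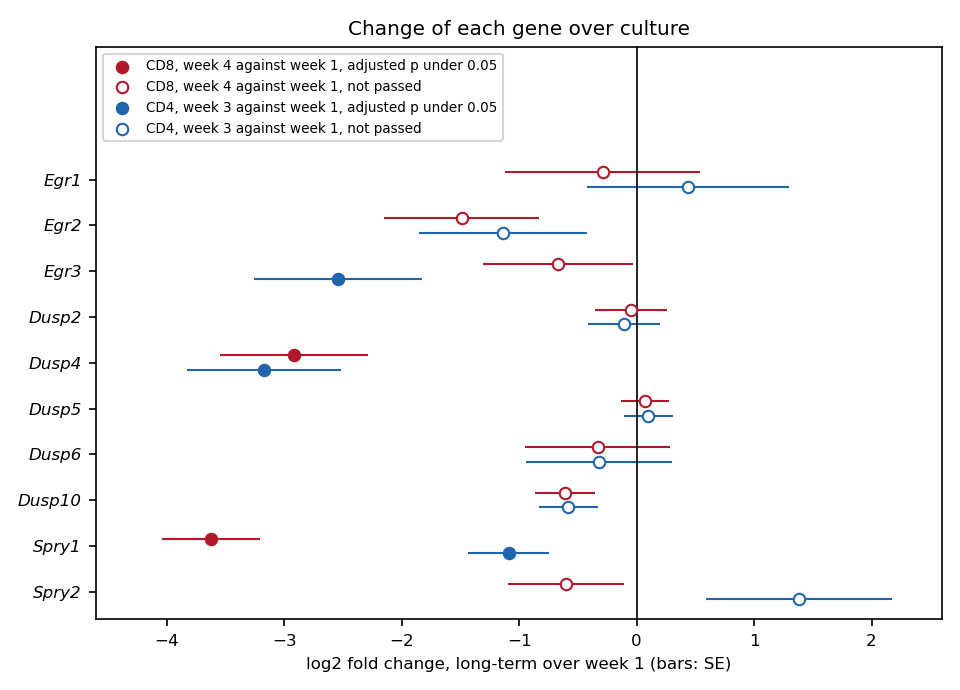
Log2 fold change of each gene over culture (x axis, long-term over week 1; bars are SE) for CD8 and CD4 cells, 5 libraries against 5. Filled points passed an adjusted p of 0.05: Dusp4 and Spry1 in both cell types, and Egr3 in CD4 cells.

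Of the transcription factors, Egr1 was the most abundant. It averaged 25.8 TPM in CD8 week 4, 32.7 TPM in CD8 week 1, 5.99 TPM in CD4 week 3 and 4.54 TPM in CD4 week 1, and on average made up 86.3%, 82.9%, 76.4% and 54.7% of the summed TPM of the 3 EGR genes in those groups. Egr3 averaged 2.28, 3.76, 0.6 and 3.58 TPM in the same groups, and Egr2, the rarest, averaged 0.479, 1.41, 0.26 and 0.585 TPM.

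Egr1 had 63.4, 39.1, 64.5, 10.9 and 11.4 CPM in the 5 CD8 week 4 libraries, against 17.1, 27.1, 28.4, 69.7 and 89.6 CPM in the CD8 week 1 libraries. The week 4 values of title range A lay above every week 1 value of that range, while in range B both week 4 libraries lay below both week 1 libraries. The log2 fold change was -0.29 (SE 0.828, adjusted p = 0.812) over all CD8 libraries, 1.19 (adjusted p = 0.0594) in range A alone and -2.85 (adjusted p = 7.16e-05) in range B alone. The direction of Egr1 in CD8 cells thus differed between the title ranges. Range B held only 2 libraries per group, so its adjusted p rests on the spread between 2 libraries, which could be technical. The same applies to the other range B values below.

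In CD4 cells Egr1 had 14.6, 25, 1.16, 1.46 and 0.719 CPM at week 3, against 2.9, 5.41, 14.8, 7.26 and 1.29 CPM at week 1. Replicates 1 and 2 of week 3 were high and the other 3 low, and the groups overlapped, with a log2 fold change of 0.44 (SE 0.86, adjusted p = 0.751). At week 1, all 5 CD8 libraries lay above all 5 CD4 libraries, with 46.4 ± 31.5 CPM in CD8 and 6.33 ± 5.26 CPM in CD4 cells (SD, n = 5 each), a log2 fold change of 2.88 (SE 0.899, adjusted p = 0.0169). Of all tested genes, 12.4% were higher in CD8 cells without overlap at that stage. In the long-term groups Egr1 had 37.8 ± 26.4 CPM in CD8 week 4 and 8.58 ± 10.9 CPM in CD4 week 3 (SD, n = 5 each), where the ranges overlapped and the difference did not pass (log2 fold change 2.14, SE 0.871, adjusted p = 0.0667). It passed without CD4 week 3 replicate 2 (3.08, adjusted p = 0.0122), with limma-voom (3.06, adjusted p = 0.0213) and with DESeq2 (2.14, adjusted p = 0.0405). Ordered by mean level, Egr1 ran CD8 week 1, CD8 week 4, CD4 week 3, CD4 week 1, and each neighbouring pair in that order overlapped.

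Egr3 was the only EGR gene that passed the test over culture, in CD4 cells. It had 0.357, 0.616, 0.0857, 0.182 and 0.127 CPM in the CD4 week 3 libraries, against 3.32, 3.2, 1.05, 0.242 and 0.25 CPM in the CD4 week 1 libraries. Week 1 replicates 1 to 3 were above every week 3 library, but replicates 4 and 5 lay within the week 3 range. The counts behind these levels were 2 to 14 reads per library at week 3 and 6 to 80 at week 1. The log2 fold change was -2.54 (SE 0.716, adjusted p = 0.0234), and without CD4 week 3 replicate 3, 4 or 5 or CD4 week 1 replicate 1 or 2 the adjusted p was between 0.0578 and 0.0659. With limma-voom the adjusted p was 0.101. In CD8 cells Egr3 had 0.603 to 1.5 CPM at week 4, against 0.894 to 3.99 CPM at week 1 (log2 fold change -0.67, SE 0.64, adjusted p = 0.441). The change in CD8 cells minus that in CD4 cells was 1.86 (SE 0.955, adjusted p = 0.471), so a difference between the cell types was not shown. Egr3 was also higher in CD8 week 4 than in CD4 week 3, by a log2 fold change of 1.93 (SE 0.724, adjusted p = 0.0476), and 4 of 5 CD8 week 4 libraries lay above all CD4 week 3 libraries. This last call sat at the threshold and was lost under 11 of 17 other settings, among them without any of CD8 week 4 replicates 1, 2, 3 and 5 or CD4 week 3 replicates 1, 3, 4 and 5 (adjusted p = 0.0684 to 0.11).

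Egr2 had 0.161 to 0.828 CPM in CD8 week 4, against 0.726 to 3.28 CPM in CD8 week 1, where 3 of 5 week 4 libraries lay below every week 1 library. In CD4 cells it had 0.0423 to 0.703 CPM at week 3, against 0.167 to 1.24 CPM at week 1. Neither difference passed (log2 fold change -1.49, SE 0.657, adjusted p = 0.0867 in CD8 cells and -1.14, SE 0.715, adjusted p = 0.277 in CD4 cells). With neighbouring title numbers as a block, Egr2 passed in both (-1.45, adjusted p = 0.00496 in CD8 and -1.28, adjusted p = 0.0314 in CD4 cells), and in CD8 cells it also passed with CD8 libraries alone (-1.50, adjusted p = 0.0446). The read counts of Egr2 were 1 to 56 per library. Egr2 and Egr3 were the most alike of the EGR genes: their log2 CPM profiles over the 20 libraries, each centred on its own mean, differed by a root mean square of 0.62.

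**Figure D2:**
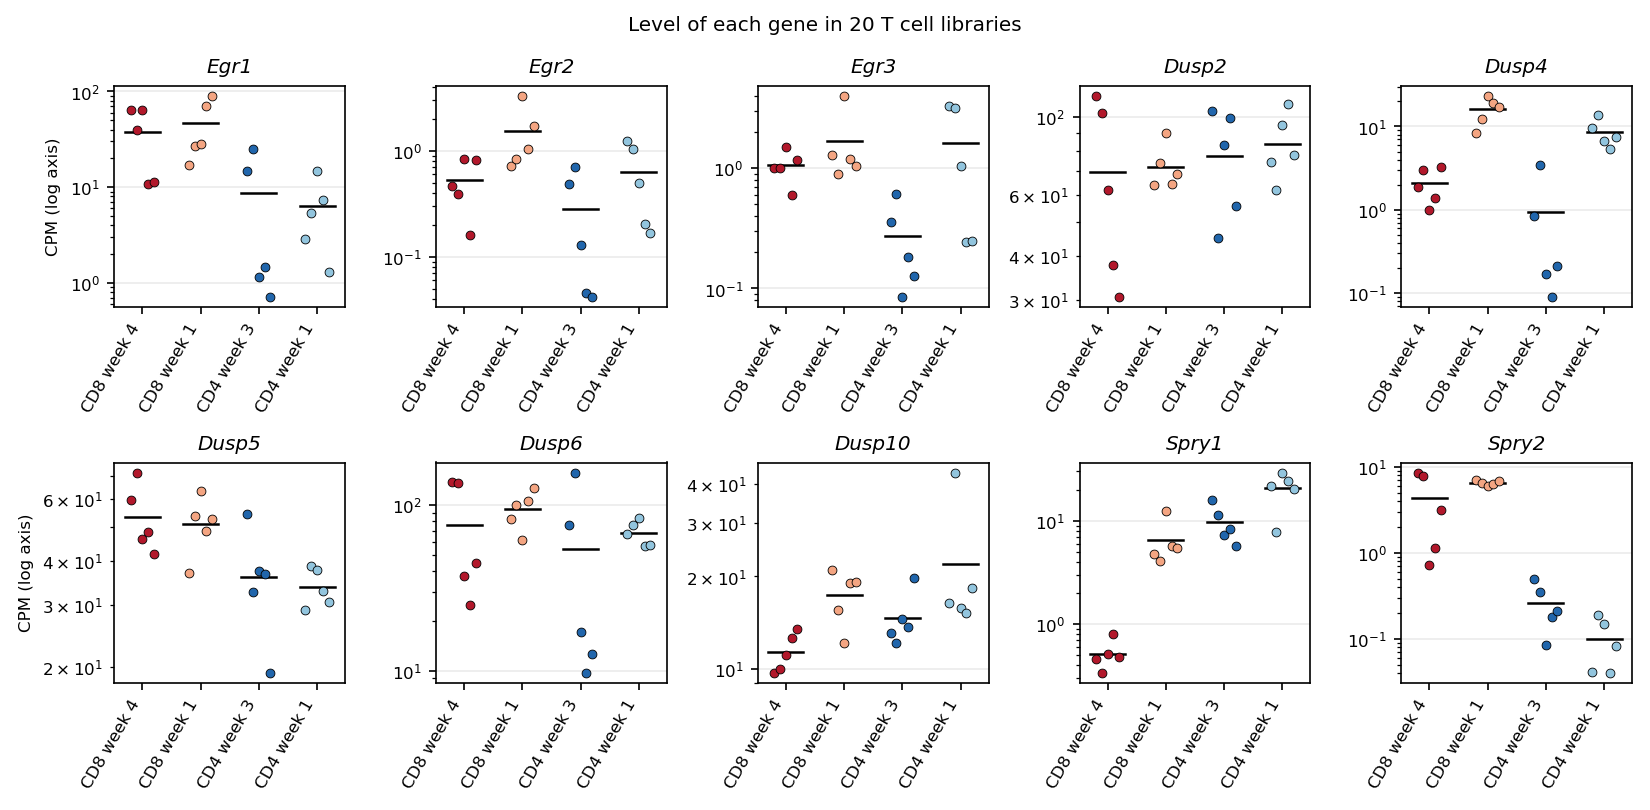
CPM on a log axis for each of the 10 genes in each library (points, in order of replicate number) with the group mean (line), 5 libraries per group. Spry1 lies lowest in CD8 week 4 and Spry2 lowest in both CD4 groups. The libraries of Egr1 spread widely in every group, and those of Dusp6 in the long-term groups.

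The transcripts of the 5 phosphatases summed to 270 ± 130 TPM in CD8 week 4, 322 ± 29.7 TPM in CD8 week 1, 240 ± 74.8 TPM in CD4 week 3 and 290 ± 28.7 TPM in CD4 week 1 (SD, n = 5 each). Dusp2 was the most abundant of them by mean TPM in every group, at 107, 113, 118 and 135 TPM, followed by Dusp6 at 83, 107, 61.1 and 78.2 TPM and Dusp5 at 66.3, 65, 44.9 and 43.9 TPM. Dusp10 averaged 11.4, 18.1, 14.9 and 22.9 TPM. Dusp4 averaged 2.36, 18.4, 1.09 and 10 TPM and was the only phosphatase of the 5 that passed the test over culture.

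Dusp4 encodes a nuclear phosphatase that acts on ERK and JNK. It had 1.89, 3.04, 0.984, 1.37 and 3.26 CPM in the CD8 week 4 libraries, against 8.24, 12.4, 23.2, 19.1 and 17 CPM in the CD8 week 1 libraries. All week 4 libraries lay below all week 1 libraries, as did 9.78% of all tested genes, and the log2 fold change was -2.92 (SE 0.63, adjusted p = 0.00231). The same held within each title range, at -2.90 (adjusted p = 0.0382) in range A and -3.0 (adjusted p = 0.00131) in range B. In CD4 cells Dusp4 had 0.849, 3.43, 0.171, 0.0911 and 0.211 CPM at week 3, against 9.63, 13.8, 6.75, 5.32 and 7.42 CPM at week 1. Again the groups did not overlap, as for 3.88% of all genes that were lower without overlap there, and the log2 fold change was -3.17 (SE 0.657, adjusted p = 0.0051). CD4 week 3 replicate 2 held 78 of the 108 reads of that group, while replicates 3 to 5 held 2 to 5 reads each. Without replicate 2 the log2 fold change was -4.68, with limma-voom -4.22 and with the block -3.83, and over all settings it ran from -4.68 to -2.88 and passed in each.

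The change of Dusp4 in CD8 cells minus that in CD4 cells was 0.25 (SE 0.854, adjusted p = 0.946), with a 95% interval of -1.56 to 2.06. Dusp4 did not pass between the cell types either, at week 1 (log2 fold change 0.90, SE 0.58, adjusted p = 0.23) or between CD8 week 4 and CD4 week 3 (1.14, SE 0.65, adjusted p = 0.187). The long-term value rests on CD4 week 3 replicate 2: without it, Dusp4 was higher in CD8 week 4 by a log2 fold change of 2.65 (adjusted p = 0.000897). With limma-voom Dusp4 passed at both stages (0.90, adjusted p = 0.0472 at week 1 and 2.15, adjusted p = 0.0358 in the long-term groups). The order of its levels was CD8 week 1, CD4 week 1, CD8 week 4, CD4 week 3, and the step between CD4 week 1 and CD8 week 4 was the one without overlap.

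Dusp6 encodes a cytoplasmic phosphatase with a strong preference for ERK, whose transcript is widely read as an output of ERK signalling. It had 137, 135, 37.1, 25.1 and 44.9 CPM in the CD8 week 4 libraries, against 82.6, 100, 61.3, 105 and 127 CPM at week 1. In CD4 cells it had 75.6, 157, 17.1, 9.7 and 12.6 CPM at week 3, against 67, 75.4, 83.9, 56.7 and 57 CPM at week 1. In both cell types replicates 1 and 2 of the long-term group were above the other 3, which lay below every week 1 library. Neither group difference passed (log2 fold change -0.33, SE 0.617, adjusted p = 0.711 in CD8 and -0.32, SE 0.618, adjusted p = 0.75 in CD4 cells). The spread within the groups was wide: the highest library exceeded the lowest 5.44-fold in CD8 week 4 and 16.2-fold in CD4 week 3, against 2.07-fold in CD8 week 1 and 1.48-fold in CD4 week 1. Within the CD8 title ranges the log2 fold change of Dusp6 was 0.32 (adjusted p = 0.713) in range A and -1.75 (adjusted p = 0.00333) in range B, so it passed in range B alone.

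**Figure D3:**
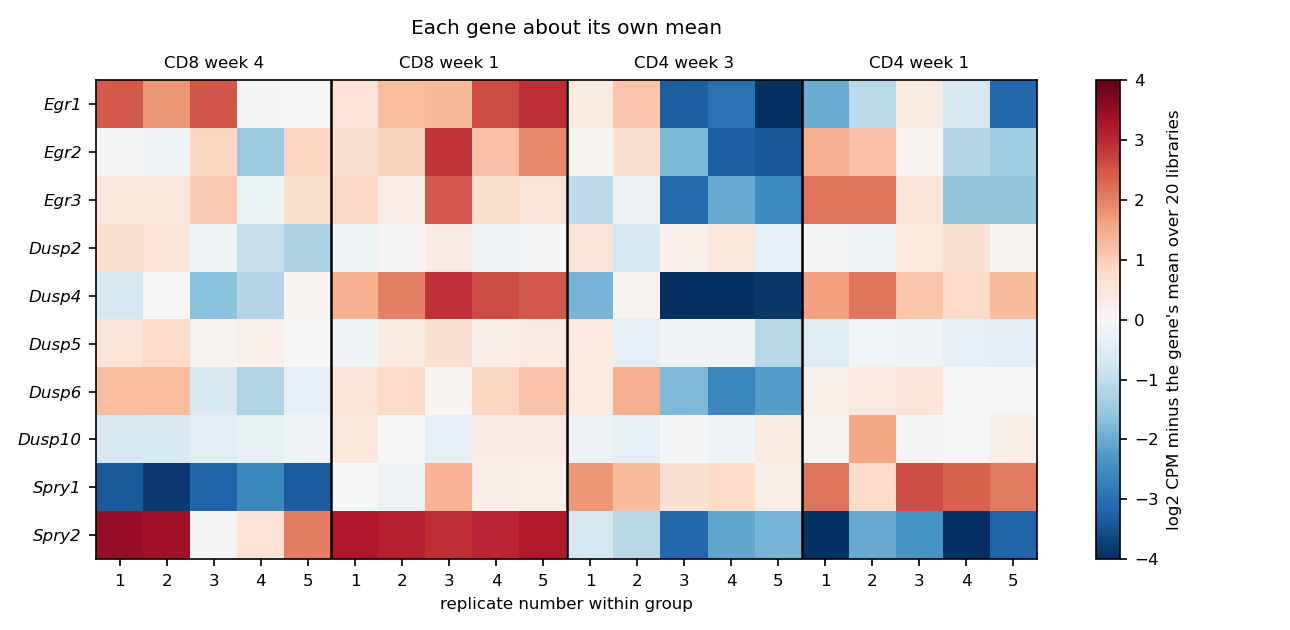
Log2 CPM of each gene in each library minus that gene's mean over the 20 libraries, with colours held at -4 and 4 beyond those values. In CD4 week 3, Egr1, Egr2, Egr3, Dusp4, Dusp6, Spry1 and Spry2 are all higher in replicates 1 and 2 than in the other 3 libraries. The share of all tested genes with this pattern was not counted.

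The same CD4 week 3 replicates 1 and 2 stood above the other 3 libraries of that group for 7 of the 10 genes: Egr1, Egr2, Egr3, Dusp4, Dusp6, Spry1 and Spry2. Dusp10 was below the others in both, and Dusp2 and Dusp5 were mixed. In CD8 week 4, replicates 1 and 2 were above the other 3 for Dusp2, Dusp5, Dusp6 and Spry2, and below them for Dusp10 and Spry1. In CD8 week 1, replicate 3 had the highest value for 6 of the 10 genes (Egr2, Egr3, Dusp2, Dusp4, Dusp5 and Spry1) and the lowest for Dusp6, Dusp10 and Spry2. These are values of single libraries, and what set them apart was not tested. The shares of all tested genes with the same patterns were not counted. These counts therefore do not show a trait particular to the 10 genes.

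Dusp2 and Dusp5 encode nuclear phosphatases, Dusp5 acting on ERK. Their profiles had the smallest difference of any pair among the 10 genes (root mean square 0.57 on the log2 scale). That exceeds the spread of each gene about its own mean, 0.50 for Dusp2 and 0.44 for Dusp5. A flat profile would thus lie closer to each. The promoter windows of both genes, from 250 bases before to 50 after the annotated start (RefSeq, GRCm38.p6), are shown because they hold motifs read by other proteins of this network. Capitals mark CArG boxes in Dusp5 (chr19:53528895-53529194, plus strand) and a match to the EGR motif GCGNGGGCG in Dusp2 (chr2:127335909-127336208, plus strand).
Dusp5: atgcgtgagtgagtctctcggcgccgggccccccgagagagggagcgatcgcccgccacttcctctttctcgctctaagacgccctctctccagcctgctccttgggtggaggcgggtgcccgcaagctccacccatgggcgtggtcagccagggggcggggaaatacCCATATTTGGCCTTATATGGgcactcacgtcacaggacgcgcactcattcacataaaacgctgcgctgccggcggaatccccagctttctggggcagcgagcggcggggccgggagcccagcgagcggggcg
Dusp2: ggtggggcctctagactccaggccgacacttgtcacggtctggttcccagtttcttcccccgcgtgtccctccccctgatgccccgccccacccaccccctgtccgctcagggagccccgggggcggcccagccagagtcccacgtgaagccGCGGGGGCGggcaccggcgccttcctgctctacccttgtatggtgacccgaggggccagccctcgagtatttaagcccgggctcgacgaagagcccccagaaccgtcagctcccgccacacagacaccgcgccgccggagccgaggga
The Dusp5 window held 2 CArG boxes side by side, at -82 to -73 and -72 to -63 from the start. Dusp2 held its EGR match at -98 to -90, which overlaps a GC box (GGGCGG), a motif found in 35.7% of windows. Of 32851 promoter windows of the same length, searched on both strands, 1.63% held a CArG box and 5.55% an EGR match. The Dusp2 window was 70.7% G and C, against a median of 52.7% over all windows, and the EGR share was not matched for this. Windows were found for 7 of the 10 genes, and those of Egr2, not shown, also held CArG boxes. A match is a description of the letters and shows no binding.

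Dusp5 had 41.8 to 71.5 CPM in CD8 week 4 and 37.1 to 63.2 CPM in CD8 week 1, against 19.2 to 54.5 CPM in CD4 week 3 and 29.1 to 38.8 CPM in CD4 week 1. Over culture the log2 fold change was 0.07 (SE 0.207, 95% interval -0.37 to 0.51) in CD8 cells and 0.10 (SE 0.208, 95% interval -0.34 to 0.54) in CD4 cells. Dusp5 was higher in CD8 than in CD4 cells at both stages, by a log2 fold change of 0.60 (SE 0.208, adjusted p = 0.0299) at week 1 and 0.57 (SE 0.208, adjusted p = 0.0426) in the long-term groups. Both calls were close to the threshold. Without CD8 week 1 replicate 2, 3 or 5 or CD4 week 1 replicate 1, 4 or 5 the week 1 adjusted p was 0.0537 to 0.0715, and without CD8 week 4 replicate 1 or 2 or any of CD4 week 3 replicates 2 to 5 the long-term adjusted p was 0.0661 to 0.131. Without both CD8 week 4 replicates 1 and 2, the long-term log2 fold change was 0.33 (adjusted p = 0.34).

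Dusp2, which acts on ERK and p38, had 30.6 to 115 CPM in CD8 week 4 and 63.8 to 89.9 CPM in CD8 week 1, and 44.9 to 104 CPM in CD4 week 3 and 61.7 to 109 CPM in CD4 week 1. The log2 fold change over culture was -0.05 (SE 0.308, 95% interval -0.70 to 0.60) in CD8 and -0.11 (SE 0.307, 95% interval -0.76 to 0.54) in CD4 cells. In CD8 range B alone it was -0.97 (adjusted p = 0.0013), and in range A 0.28 (adjusted p = 0.511). Between CD8 week 4 and CD4 week 3 it was -0.15 (adjusted p = 0.732), and -0.83 (adjusted p = 0.043) without both CD8 week 4 replicates 1 and 2. Dusp10, a phosphatase for JNK and p38, had 9.68 to 13.5 CPM in CD8 week 4 and 12.1 to 21 CPM in CD8 week 1, and 12.1 to 19.8 CPM in CD4 week 3 and 15.2 to 43.7 CPM in CD4 week 1. It was lower in the long-term group in both cell types without passing (log2 fold change -0.61, SE 0.253, adjusted p = 0.0686 in CD8 and -0.58, SE 0.252, adjusted p = 0.118 in CD4 cells). In CD8 cells Dusp10 passed under some settings, among them range B alone (-0.57, adjusted p = 0.00681), DESeq2 (-0.64, adjusted p = 0.044) and the fit without CD8 week 1 replicate 3 (-0.72, adjusted p = 0.036). Dusp5, Dusp10 and Spry1 each overlap an antisense gene, and the authors counted reads by strand.

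CD8 and CD4 cells held the Sprouty genes in opposite proportion. Spry2 made up 66.1 to 97% of the summed Spry1 and Spry2 TPM in CD8 week 4 libraries and 39.7 to 68.4% in CD8 week 1, against 1.61 to 4.87% in CD4 week 3 and 0.231 to 3.23% in CD4 week 1. Their promoter windows are shown because the pair differs most in where it is expressed (RefSeq, GRCm38.p6, Spry1 at chr3:37639697-37639996 on the plus strand and Spry2 at chr14:105896770-105897069 on the minus strand, each from 5′ to 3′ along its gene).
Spry1: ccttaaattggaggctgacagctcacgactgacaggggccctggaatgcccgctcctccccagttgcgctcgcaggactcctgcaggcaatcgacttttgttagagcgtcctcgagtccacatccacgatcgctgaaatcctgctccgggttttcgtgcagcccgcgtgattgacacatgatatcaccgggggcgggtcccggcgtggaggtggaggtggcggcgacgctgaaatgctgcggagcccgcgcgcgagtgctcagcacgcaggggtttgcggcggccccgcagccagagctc
Spry2: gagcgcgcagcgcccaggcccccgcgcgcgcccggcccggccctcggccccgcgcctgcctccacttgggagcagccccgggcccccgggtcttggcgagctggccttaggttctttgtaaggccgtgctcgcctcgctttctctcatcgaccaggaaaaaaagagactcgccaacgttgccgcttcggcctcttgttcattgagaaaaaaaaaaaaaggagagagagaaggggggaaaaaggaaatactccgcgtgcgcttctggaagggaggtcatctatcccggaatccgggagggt
Neither window held a CArG box or the letters searched for EGR (GCGNGGGCG), AP-1 (TGANTCA), CRE (TGACGTCA) or ETS (CCGGAAG), so nothing is in capitals. Their absence speaks only of these letters in these windows.

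Spry1 had 0.464, 0.338, 0.518, 0.804 and 0.479 CPM in the CD8 week 4 libraries, against 4.77, 4.11, 12.5, 5.69 and 5.5 CPM in the CD8 week 1 libraries. Every week 4 library lay far below every week 1 library, with 6 to 20 reads each against 69 to 214. In that comparison 9.78% of all tested genes were lower without overlap. The log2 fold change of Spry1 was -3.62 (SE 0.417, adjusted p = 1.63e-05), a 12.3-fold lower level. Within the title ranges it was -4.0 (adjusted p = 0.0291) in range A and -3.12 (adjusted p = 0.000604) in range B. In CD4 cells Spry1 had 15.8, 11.4, 7.28, 8.29 and 5.75 CPM at week 3, against 21.7, 7.85, 29.3, 24.3 and 20.2 CPM at week 1. Week 1 replicate 2 lay within the week 3 range, and the log2 fold change was -1.09 (SE 0.344, adjusted p = 0.0374), a 2.13-fold lower level. That call was lost when any of CD4 week 3 replicates 3 to 5 or CD4 week 1 replicates 1 and 3 to 5 was left out (adjusted p = 0.0567 to 0.102).

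Spry1 was the only one of the 10 genes whose change over culture differed between the cell types, where 0.655% of all tested genes did. The change in CD8 cells minus that in CD4 cells was -2.53 (SE 0.531, adjusted p = 0.0361), with a 95% interval of -3.65 to -1.40. The difference kept its direction under all 29 alternatives but missed the threshold under 13 of them, with an adjusted p of up to 0.166 (limma-voom). Without any one of CD8 week 4 replicates 1, 2, 3 and 5, CD8 week 1 replicates 4 and 5, CD4 week 3 replicates 1 and 4 and CD4 week 1 replicates 1 and 4, the adjusted p was 0.0502 to 0.0722. Spry2 had a difference in change of -1.98 (SE 0.932, adjusted p = 0.416), with a 95% interval of -3.96 to -0.01. Without both CD8 week 4 replicates 1 and 2, Spry1 missed the threshold (-2.32, adjusted p = 0.0768) and Spry2 passed it (-3.33, adjusted p = 0.0323), so the called gene was then Spry2. The CD8 culture was also 25 days long and the CD4 culture 18 days, and these cannot be told apart from cell type here.

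Between the cell types, Spry1 was lower in CD8 cells at both stages. At week 1, where 38.1% of all genes were called and 4 of the 10, the log2 fold change of Spry1 was -1.66 (SE 0.352, adjusted p = 0.00122). In the long-term groups, where 32.7% of all genes were called and again 4 of the 10, it was -4.19 (SE 0.42, adjusted p = 6e-07), with 0.521 ± 0.172 CPM in CD8 week 4 and 9.71 ± 3.99 CPM in CD4 week 3 (SD, n = 5 each). No CD8 week 4 library overlapped a CD4 week 3 library for Spry1, and 9.30% of all genes were lower without overlap there. The other called genes were all higher in CD8 cells: Egr1, Dusp5 and Spry2 at week 1, and Egr3, Dusp5 and Spry2 in CD8 week 4 over CD4 week 3.

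Spry2 was the converse of Spry1. It had 8.54, 7.88, 0.725, 1.13 and 3.18 CPM in CD8 week 4 and 7, 6.38, 5.92, 6.36 and 6.85 CPM in CD8 week 1, against 0.491, 0.352, 0.0857, 0.182 and 0.211 CPM in CD4 week 3 and 0.0415, 0.188, 0.15, 0.0403 and 0.0833 CPM in CD4 week 1. No CD8 library overlapped a CD4 library at either stage, and 12.4% of all genes were higher in CD8 cells without overlap at week 1, as were 11.3% in the long-term groups. The CD4 values rest on 30 reads over the week 3 group and 11 over the week 1 group. The log2 fold change of CD8 over CD4 was 5.98 (SE 0.692, adjusted p = 3.91e-06, 95% interval 4.51 to 7.45) at week 1 and 4.00 (SE 0.606, adjusted p = 6.47e-05, 95% interval 2.71 to 5.28) in the long-term groups. Without both CD8 week 4 replicates 1 and 2 the long-term value was 2.65 (adjusted p = 0.000627).

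Over culture Spry2 did not pass in CD8 cells (log2 fold change -0.60, SE 0.492, adjusted p = 0.368), where the 5 week 1 libraries were close together and the week 4 libraries spread 11.8-fold. Of the week 4 libraries, 3 lay below every week 1 library, and replicates 1 and 2 lay above every one. Without those replicates, a setting chosen after seeing the data because they stand apart on the first principal component, Spry2 was lower at week 4 by a log2 fold change of -1.94 (adjusted p = 0.0047), and in range B alone by -1.64 (adjusted p = 0.0238). In CD4 cells the log2 fold change was 1.38 (SE 0.792, adjusted p = 0.232).

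**Figure D4:**
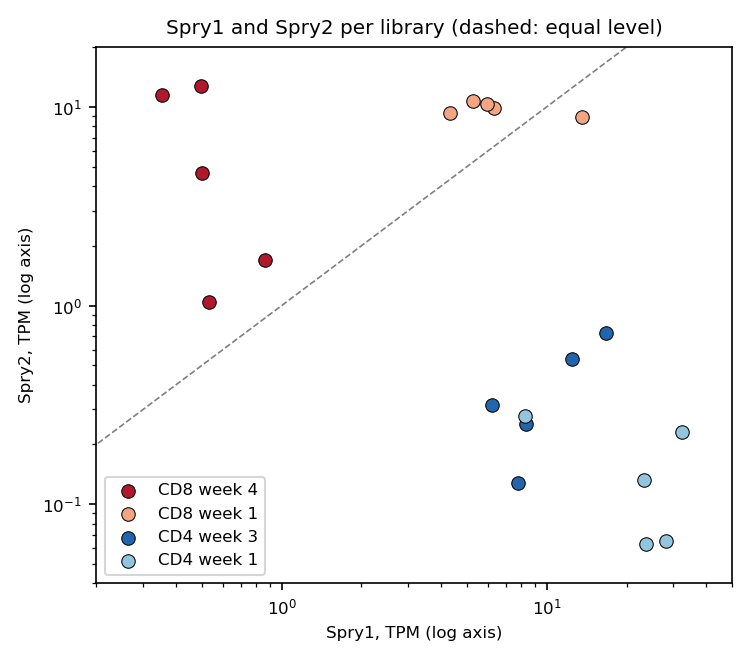
Spry1 (x axis) and Spry2 (y axis) in TPM on log axes, 1 point per library. Of the 10 CD8 libraries all but CD8 week 1 replicate 3 lie above the line of equal level, and all 10 CD4 libraries lie below it.

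The relatives of these genes gave a mixed picture. The list counts below stand beside 17.1% of all tested genes that rose and 16.4% that fell in CD8 cells. In CD4 cells these shares were 7.67% and 8.80%. Of 4 other tested Sprouty and SPRED genes, which also act on RAS and RAF, none rose over culture. In CD8 cells Spry4 fell (log2 fold change -1.79, SE 0.555, adjusted p = 0.0193), at 0.355 ± 0.188 CPM in week 4 against 1.24 ± 0.463 CPM in week 1 (SD, n = 5 each). Spred1 fell in both cell types, by -1.0 (SE 0.359, adjusted p = 0.0393) in CD8 cells and by -1.68 (SE 0.375, adjusted p = 0.00769) in CD4 cells. The medians of this list were -0.68 in CD8 and -0.73 in CD4 cells. Between the cell types, where these genes were named after their values were seen, Spry4, Spred1 and Spred3 were higher in CD8 cells at week 1, and those and Spred2 were higher in CD8 week 4 than in CD4 week 3. Spry1 was thus the one gene among the 6 tested that was lower in CD8 cells.

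Of 12 other tested DUSP genes, 3 rose and none fell in each cell type, with medians of 0.04 in CD8 and 0.02 in CD4 cells. Dusp3, which encodes a small phosphatase that acts on ERK and JNK, rose in both. It had 28.6 ± 3.56 CPM in CD8 week 4 against 4.77 ± 0.876 CPM in CD8 week 1, and 26 ± 11.7 CPM in CD4 week 3 against 3.08 ± 0.611 CPM in CD4 week 1 (SD, n = 5 each). Its log2 fold changes were 2.58 (SE 0.253, adjusted p = 5.95e-06) and 3.08 (SE 0.259, adjusted p = 2.34e-06), so Dusp3 moved opposite to Dusp4 in both cell types. The others that rose were Dusp28 and Dusp23 in CD8 cells and Dusp12 and Dusp23 in CD4 cells.

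Among 8 tested EGR corepressors and factors that act on CArG boxes, Nab2, a corepressor that binds EGR proteins and is itself an EGR target, fell in both cell types. It had 14.1 ± 6.94 CPM in CD8 week 4 against 45 ± 10.1 CPM in CD8 week 1, and 14 ± 2.58 CPM in CD4 week 3 against 36.8 ± 9.72 CPM in CD4 week 1 (SD, n = 5 each), with log2 fold changes of -1.67 (SE 0.275, adjusted p = 0.000357) and -1.39 (SE 0.273, adjusted p = 0.00378). Mrtfa and Mrtfb, coactivators of SRF, rose in CD8 cells by 0.44 and 0.32. Srf itself had log2 fold changes of 0.03 in CD8 and 0.04 in CD4 cells.

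Of 25 other tested immediate-early and activation transcription factors, 3 rose and 5 fell in CD8 cells, and none rose and 6 fell in CD4 cells. The medians were -0.19 in both. Irf8 fell in both, by -2.06 (SE 0.436, adjusted p = 0.00204) in CD8 and -2.43 (SE 0.457, adjusted p = 0.00288) in CD4 cells. Of the orphan nuclear receptors, Nr4a3 fell in both (-1.38, adjusted p = 0.031 in CD8 and -2.03, adjusted p = 0.0135 in CD4 cells), as did Nr4a1 (-2.78, adjusted p = 0.00603 and -2.63, adjusted p = 0.0189), while Nr4a2 fell in CD8 cells (-1.36, adjusted p = 0.0002) and had -0.21 (adjusted p = 0.506) in CD4 cells. In CD8 cells Ier5 rose by 0.80 and the antiproliferative gene Btg2 by 0.94.

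Of 16 genes linked to EGR2 and EGR3 in T cells, 2 rose and 2 fell in CD8 cells, and 1 rose and 4 fell in CD4 cells, with medians of -0.08 and -0.07. The inhibitory receptor Lag3 fell in both, by -2.85 (SE 0.987, adjusted p = 0.0329) in CD8 and -4.92 (SE 1.33, adjusted p = 0.0193) in CD4 cells. Nrgn also fell in both, by -3.97 (adjusted p = 0.000319) in CD8 and -2.75 (adjusted p = 0.0332) in CD4 cells. The ubiquitin ligase gene Itch rose by 0.26 in CD8 and 0.30 in CD4 cells.

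Surface and secreted markers of receptor signalling fell where they passed: 4 of 10 in CD8 and 3 of 10 in CD4 cells, with none that rose and medians of -1.21 and -0.45. Cd5, whose level follows receptor signal strength, fell in both, by -0.86 (SE 0.123, adjusted p = 0.000108) in CD8 and -0.81 (SE 0.122, adjusted p = 0.00063) in CD4 cells. Of 8 other ERK output genes, 1 rose and 2 fell in CD8 cells and none rose and 2 fell in CD4 cells, with medians of -0.49 and -0.31. Ets2 fell in both (-0.56 and -0.69), and Etv4 fell in CD8 cells by -3.14 (SE 0.564, adjusted p = 0.000679).

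Called genes of the kinase cascades went in both directions, as did those among all tested genes. Of 25 tested genes of the RAS to ERK cascade, 4 rose and 5 fell in CD8 cells and 2 rose and 1 fell in CD4 cells, with medians of -0.02 and -0.07. Araf, which encodes a RAF kinase, rose by 0.54 in CD8 and 0.22 in CD4 cells. Of 14 genes of the JNK and p38 cascades, 3 rose and 4 fell in CD8 cells and 1 rose and 2 fell in CD4 cells, with medians of -0.06 and 0.00. Mapkapk2, which encodes a kinase downstream of p38, fell in both, by -0.53 and -0.49.

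**Figure D5:**
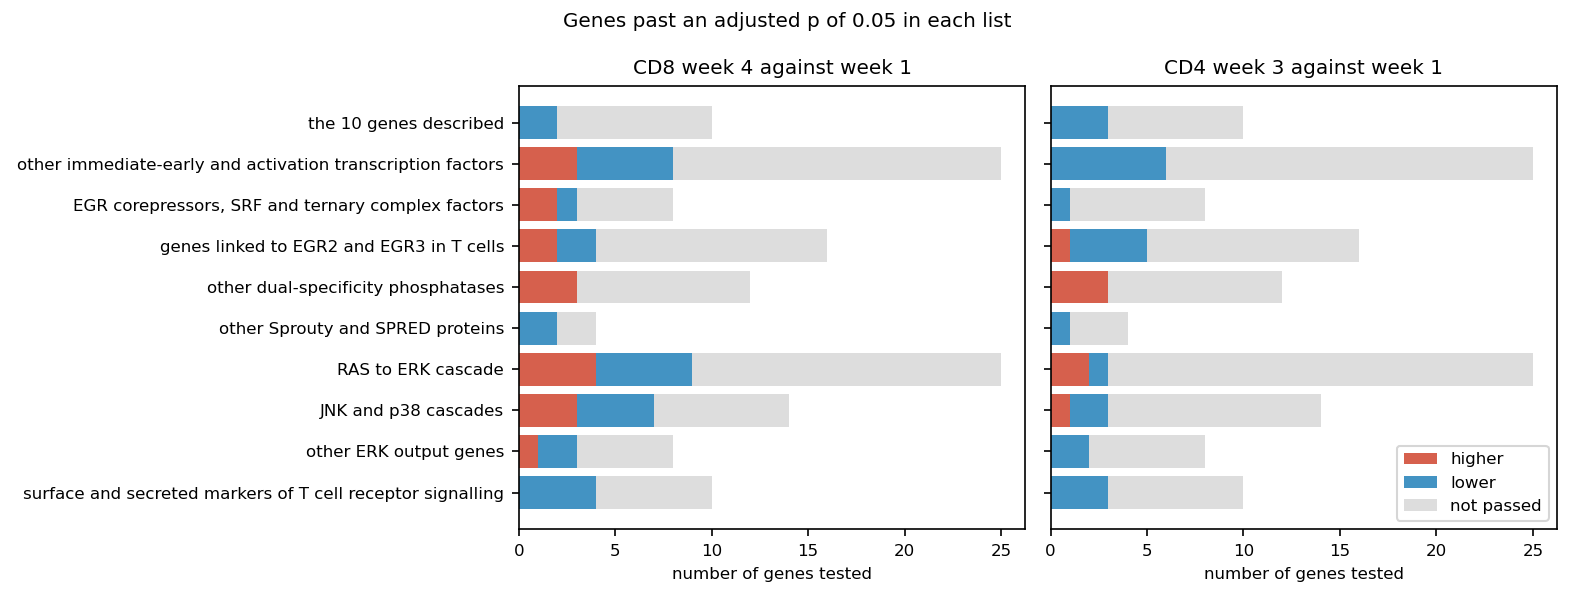
Number of genes in each list that were higher, lower or not past an adjusted p of 0.05 (x axis, genes tested) over culture in CD8 cells (left) and CD4 cells (right). Other DUSP genes that passed all rose, while the 10 genes and the receptor signalling markers that passed all fell.

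The genes with the most similar profiles were sought among 9337 or 9338 candidates with a mean of at least 5 CPM, by the root mean square difference of centred log2 CPM over the 20 libraries. Dusp4 was closest to Pbk (0.77), Mki67 (0.80) and Ccna2 (0.80), where its own spread about its mean was 2.07. Spry2 was closest to Lat2 (0.72), Ttc39c (0.76) and Cd244a (0.81), with an own spread of 2.28. Spry1 was closest to Usp6nl (0.70), Cd9 (0.75) and Zfp608 (0.85), with an own spread of 1.94. All of the genes described, not only these 3, had neighbours closer than their own spread. A flat profile would differ from a gene by exactly that gene's own spread, and the measure has no test.

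For the other 7 genes the match was looser against their own spread. Egr1 was closest to Plxdc1 (1.02 against 2.05), Fhl2 (1.06) and Tmem163 (1.06), Egr2 to Fam72a (0.74 against 1.2) and Tuba1c (0.75), and Egr3 to Eif2ak2 (0.70 against 1.26), Gbp6 (0.73) and Ifi206 (0.74). Dusp6 was closest to Mybl1 (0.56 against 1.12), Cntln (0.59) and Arhgap33 (0.59), and Dusp2 to Pvr (0.38 against 0.50), Rasa1 (0.39) and Fam234b (0.41). Dusp5 was closest to Lrrc61, Ndfip2 and Sugt1 (0.26 each against 0.44), and Dusp10 to Smchd1 (0.27 against 0.47), Lipe (0.29) and Msh3 (0.31). Among the 10 genes themselves, Spry1 and Spry2 were the pair least alike (3.77).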

How the data were processed

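The 10 genes, the gene lists and the tests were chosen with earlier results of these data known. The deposited table holds raw read counts per gene in 20 libraries of polyadenylated RNA from stranded libraries (NEBNext Ultra II Directional, NextSeq, per the labels' protocols). Per the file headers, featureCounts 1.6.3 counted reads in its reverse strand mode against the GENCODE M12 annotation of GRCm38. STAR and mm10 are named in the submitters' processing notes. The recorded command sets no option for reads with several alignments or several genes, which the tool then leaves out. Exon lengths in the deposited table gave the TPM. The totals of the deposited counts ran from 13.3 to 28.3 M per library.

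The main test was edgeR's quasi-likelihood F test (edgeR 4.0.16, R 4.3.3), after filterByExpr and TMM, with 4 group means in 1 model and Benjamini-Hochberg adjustment over 13290 genes. Each SE was taken as the size of the log2 fold change over the square root of its F. Log2 CPM used a prior count of 2. The fit was tested on simulated data. Replicate pairs of a group were compared as duplicates (chi-square per degree of freedom 5.9 to 141 over 40 pairs), and each was counted as a sample. Replicates are numbered in the order of the samples, and the labels pair none. Alternatives were RLE factors, library totals, DESeq2 1.42.0, limma-voom (limma 3.58.1), other filters and a fit of each cell type by itself. Further ones were a term for the title range or each range alone, neighbouring title numbers as a block, and each library left out. Exact permutation tests of log2 CPM were also run, with an unadjusted p. Named list genes are, per list and direction, the 2 called genes with the smallest adjusted p. Other list genes were named outside this rule, among them Nr4a1, Dusp23, Srf and, in CD4 cells, Nrgn and Nr4a2. Some genes that these rules name are not reported here. Promoters came from RefSeq. Levels, permutations and plots used scipy 1.17.1, pandas 2.3.3, matplotlib 3.10.9 and numpy 2.4.6 under Python 3.11.15.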

Additional observations from a re-analysis of the deposited data

Results flagged for a closer look

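In 40 sets of 5 libraries (10 genes in 4 groups), the gap between the highest or lowest library and its nearest neighbour was measured. In 4 sets it was more than 0.71 of the group's range, Dixon's 95% critical value for 5 samples. Chance gives that in about 1 in 20 sets if values are normally distributed. The values here were CPM without a log scale and the sets share libraries, so that rate need not apply. Egr3 had 3.99 CPM in CD8 week 1 replicate 3, against 0.894 to 1.3 CPM in the other 4 libraries. Spry1 had 12.5 CPM in the same library, against 4.11 to 5.69 CPM in the others. Dusp4 had 3.43 CPM in CD4 week 3 replicate 2, against 0.0911 to 0.849 CPM in the others. Dusp10 had 43.7 CPM in CD4 week 1 replicate 2, against 15.2 to 18.4 CPM in the others. What set these libraries apart was not tested.

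The change of Spry1 over culture differed between the cell types: its log2 fold change in CD8 cells minus that in CD4 cells was -2.53 (SE 0.531, adjusted p = 0.0361 by the interaction term). This call was lost under 13 of 29 alternatives. Culture time, 25 days for CD8 and 18 days for CD4 cells, cannot be told apart from cell type here.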

How the results depend on the processing

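Of 1058 values of the 10 genes under other settings, 903 kept their direction and their side of the threshold, 54 lost a call, 26 gained one and 75 turned direction, none of them a called value. The exact permutation tests entered these counts with an unadjusted p, which could not be smaller than 0.00794. Their calls are therefore not on the same threshold as the adjusted ones. Kept under every setting run were Dusp4 and Spry1 in CD8 cells, Dusp4 in CD4 cells, Egr1, Spry1 and Spry2 at week 1, and Spry1 and Spry2 in the long-term groups. Where a result moved, the cause was not tested. Over culture of CD8 cells, range A alone gave 1.85% of tested genes higher and 2.31% lower (17.1% and 16.4% in all libraries). In range B, with 2 libraries per group, 7 of the 10 genes were lower, where 24.1% of tested genes were higher and 25.1% lower. With CD8 libraries alone 4 of the 10 were lower (2 in all), where 15.7% of tested genes were higher and 17.1% lower. CD4 libraries alone gave 4.84% higher and 4.45% lower (7.67% and 8.80%) and 1 of the 10 lower (3). The cell type difference in change (0.248% higher, 0.406% lower) gave 1.17% and 1.34% with DESeq2, 0.0804% and 0.141% without a filter, 0.564% and 0.775% with neighbouring title numbers as a block, and 0.520% and 0.711% without both CD8 week 4 replicates 1 and 2 (added once the data had been seen). Its 1 gene of the 10 became 0 with limma-voom and with the block. CD8 week 4 against CD4 week 3 gave 10.1% higher and 8.81% lower without those replicates (32.7% in either direction in all), with 1 of the 10 higher and 2 lower (3 and 1). Without a filter 1 of the 10 was higher there, as were 9.22% of tested genes.

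With 1 library left out, the CD4 shares ran from 4.27% to 12.5% higher and 3.84% to 14.6% lower, the highest without CD4 week 3 replicate 2, with 1 to 3 of the 10 lower. Those of the difference in change ran from 0.0745% to 1.16% higher and 0.134% to 1.2% lower, the highest without CD8 week 1 replicate 3, with 0 to 1 of the 10. In CD8 week 4 against CD4 week 3, 1 to 4 of the 10 were higher, as were 14.2% to 22.4% of tested genes. No paired analysis was possible because the labels pair no libraries and the replicate numbers only follow the order of the samples. The block of neighbouring title numbers was run in its place.

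The log2 fold changes that turned were the following. In CD8 cells Egr1 was 1.19, Dusp2 0.28 and Dusp6 0.32 in range A, and Dusp5 -0.19 in range B and -0.17 without both CD8 week 4 replicates 1 and 2. Leaving out 1 library gave -0.57 to 0.09 (Egr1), -0.31 to 0.14 (Dusp2) and -0.06 to 0.16 (Dusp5). In CD4 cells Egr1 was -0.43 with limma-voom, -0.26 with the block and -0.42 on log2 CPM, and leaving out 1 library gave -0.50 to 1.02 (Egr1), -0.24 to 0.03 (Dusp2) and -0.10 to 0.26 (Dusp5). For the difference in change, Egr1 was 0.00, Dusp2 -0.07, Dusp5 0.03 and Dusp6 0.53 with limma-voom. Dusp2 was -0.09 with title range as a term. The block gave -0.07 (Dusp2), 0.03 (Dusp5) and 0.56 (Dusp6), Dusp6 was 0.01 without a filter, and without both CD8 week 4 replicates Dusp2 was -0.62 and Dusp10 0.09. Leaving out 1 library gave -1.32 to 0.19 (Egr1), -0.77 to 0.29 (Egr2), -0.20 to 0.25 (Dusp2), -0.04 to 1.74 (Dusp4), -0.19 to 0.17 (Dusp5), -0.34 to 0.89 (Dusp6) and -0.45 to 0.10 (Dusp10). Between cell types it gave -0.52 to 0.52 (Egr3) and -0.44 to 0.08 (Dusp10) at week 1 and -0.41 to 0.04 (Dusp2) in the long-term groups, where Dusp6 was -0.61 without both CD8 week 4 replicates. The 3 most similar profiles shared 0 to 2 genes when 4 group means replaced the libraries. Egr2, Egr3 and the CD4 levels of Spry2 rest on few reads.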
